A study of Mus musculus with 6 samples.

Results

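The 43 genes described here encode the parts of the light response of rods and cones and of the outer segment, the stack of membranes in which that response takes place. They were chosen by symbol from a list of phototransduction and outer segment genes. They were sorted into 12 rod genes, 8 cone genes and 23 genes classed as shared by both kinds of photoreceptor. Whether rods, cones or both make each gene was not tested, and the counts by class depend on this sorting. All 43 were present among the 35485 genes of the deposited tables. The classes follow textbook roles, and a few members are also made by other cells, such as Gnb1 and Gnb5 by neurons in general and Gnb3 by bipolar cells.

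The study sequenced RNA of whole retinas from male C57BL/6 mice at 12 weeks of age, 2 days after surgery on the optic nerve. In the ONC (optic nerve crush) group the nerve was crushed for 10 seconds at 2 mm behind the globe, and in the sham group it was exposed and left intact. There were 3 ONC samples and 3 sham samples, each a pool of RNA from 6 retinas, so that 18 retinas stood behind each group. All mice were wild type, and the p-values below measure the spread between pools and not between single mice.

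In the dark, cyclic GMP holds the cation channels of the outer segment open. Light activates an opsin, the opsin activates the G protein transducin, and transducin releases the phosphodiesterase that breaks down cyclic GMP, so that the channels close. Arrestin, a kinase and a GTPase-accelerating complex end the response, and guanylate cyclases restore cyclic GMP. For transducin, the phosphodiesterase, the channel and arrestin, rods and cones use separate proteins encoded by paired genes, while the other steps share genes here. ONC damages the axons of retinal ganglion cells, whose cell bodies lie in another layer of the retina.

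Sham samples held 17343945 to 18349331 exon reads and ONC samples 20019818 to 20358008. The share of gene reads that fell on exons was 75.9%, 76.6% and 70.9% in the sham samples and 79.9%, 80.4% and 78.5% in the ONC samples, so that the groups did not overlap and sham 3 was the lowest. Photoreceptor RNA was present in every sample. The cone opsin genes Opn1sw and Opn1mw stood between 159 and 192 and between 96.3 and 141, in units of the normalized level, defined as exon reads per kilobase of exon on the per-million scale after TMM scaling between samples. Genes whose RPKM averaged more than 0.3 in either group, 13670 in number, were compared by total exon reads with the quasi-likelihood test of edgeR, and a gene was called at an adjusted p under 0.1 (Benjamini-Hochberg over all 13670). All 43 genes passed this filter. Of 10 ganglion cell markers, 8 were called lower in ONC and 1 higher, and of 8 microglial markers 3 were called higher. Of 10 bipolar cell markers and of 10 amacrine and horizontal cell markers 1 each was called lower, and of 8 Müller glia markers 0 were called. The summed normalized level of the ganglion cell list was 597 to 660 in sham and 424 to 456 in ONC, and that of the microglial list was 17.3 to 22.2 in sham and 28.0 to 32.1 in ONC. Of 9 tested markers of the pigment epithelium, which adheres to the outer segments, none was called in either direction (edgeR, 0 also at an unadjusted p under 0.05), and their sum was 79.5 to 106 in sham and 63.9 to 95.9 in ONC. No marker was at 0 in all samples, and the part of other cells in the results below was not tested. In whole retina, fewer cells of a type and less RNA per cell cannot be told apart.

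For most phototransduction genes no difference between ONC and sham passed the test. Of the 43 genes, 36 were not called, 5 were higher in ONC and 2 were lower. Over all genes tested, 6.09% were called, 2.38% higher and 3.72% lower. Among the 4415 genes with a mean of 1000 or more exon reads per sample, a depth that all of the 43 genes but Cnga3 and Cngb3 reach, 8.99% were called, 2.6% higher and 6.39% lower. The genes called higher were Sag, Nr2e3, Pde6c, Rdh8 and Pde6b, and those called lower were Gucy2f and Pdc. None changed by more than 1.5-fold, a size that 1.66% of all genes tested passed together with the adjusted p. At an unadjusted p under 0.05 there were 11 genes, beside 16.7% of all genes tested. As the files place them, the spans of the called genes are chr1:87803680-87845157 for Sag, chr9:59942771-59950079 for Nr2e3, chr19:38132781-38183955 for Pde6c, chr9:20818504-20826163 for Rdh8, chr5:108388373-108431743 for Pde6b, chrX:142079289-142196936 for Gucy2f and chr1:150319417-150333906 for Pdc, exons and introns included. For 37 of the 43 genes the span in the files ends within 5000 bases of that in GRCm38 on either side.

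By class, 3 of 12 rod genes were called higher and 0 lower, 1 of 8 cone genes was called higher and 0 lower, and of 23 shared genes 1 was called higher and 2 lower. The median log2 FC (fold change, ONC over sham) was 0.01 over the rod genes, 0.10 over the cone genes and 0.01 over the shared genes, beside 0.01 over all genes tested. The cone median fell to 0.0257 without ONC 2, 0.0392 without sham 2 and 0.0466 without ONC 3. The rod median was -0.0127 without ONC 1 and 0.0418 without ONC 3, and the shared median turned to -0.0460 without ONC 1, to -0.00217 without sham 1 and to -0.00300 without sham 2, and was 0.0266 without ONC 2 and 0.0265 without sham 3. Within each class the genes spread on both sides of 0, from -0.11 to 0.39 for rod genes, from -0.11 to 0.37 for cone genes and from -0.26 to 0.27 for shared genes. The higher cone median came with the widest errors, since the standard errors of the cone genes ran from 0.07 to 0.14 against 0.05 to 0.07 for the rod genes.

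**Figure D1:**
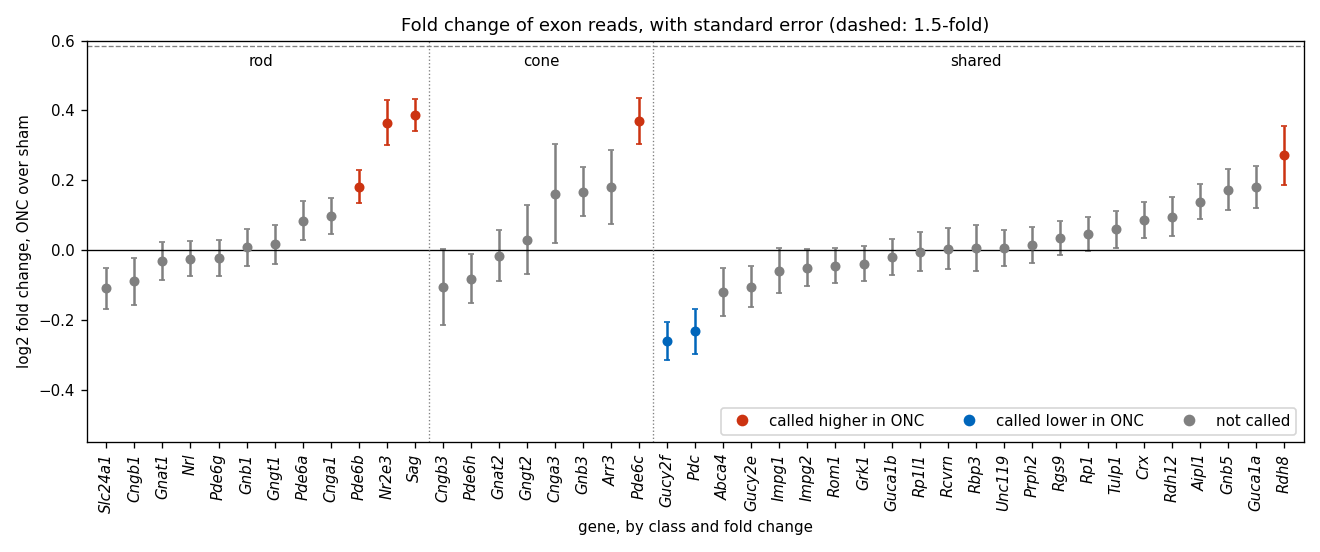
Log2 fold change of exon reads (ONC over sham, vertical axis) for each of the 43 genes, ordered within the rod, cone and shared classes, with the standard error of the fit as bars and the genes called by edgeR in color. The 5 genes called higher lie between 0.18 and 0.39, the 2 called lower at -0.23 and -0.26, all inside the dashed 1.5-fold line, and every class has genes on both sides of 0.

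These counts depend on the scaling between samples. With the divisor of the deposited RPKM, which counts intron reads as well, the median log2 FC of all genes moved to 0.13. On that scale 16 of the 43 genes were called higher and 0 lower, beside 1507 higher and 223 lower over all genes, and the class medians were 0.13, 0.22 and 0.13 for rod, cone and shared genes. The 16 were the 5 named above and Gnb3, Arr3, Pde6a, Cnga1, Gnb5, Guca1a, Crx, Rp1, Rdh12, Aipl1 and Tulp1. The DESeq2 Wald test added Gnb5, Guca1a and Aipl1 to the genes called higher. A single library also weighs on the counts. Without ONC 1 there were 10 genes called higher and 7 lower, beside 769 and 1262 of all genes, and without any one of the others 3 or 4 higher and 1 or 2 lower. Over all genes, leaving out one of the others gave 152 to 263 higher and 219 to 443 lower. The genes gained without ONC 1 were Gnb3, Arr3, Gnb5, Guca1a and Aipl1, which were higher, and Cngb1, Gucy2e, Slc24a1, Abca4 and Impg1, which were lower. ONC 1 lay above or below both other ONC samples in 38 of the 43 genes (26 above and 12 below, 88.4%), which was so for 77.4% of all genes tested.

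**Figure D2:**
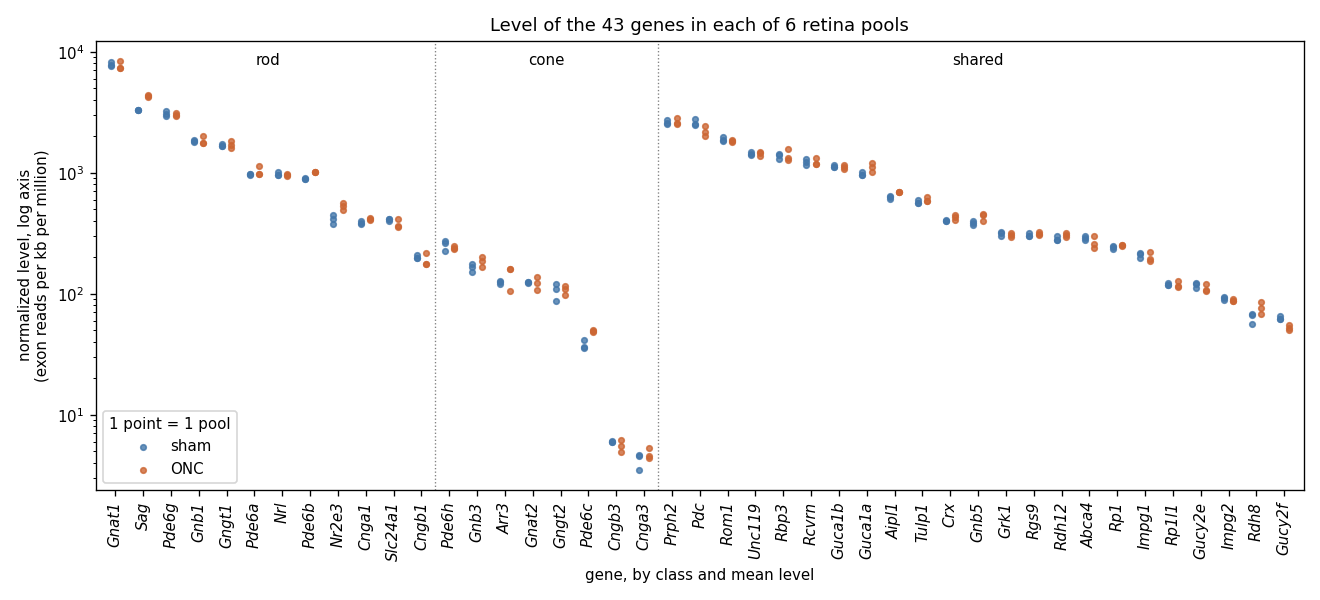
Normalized level (exon reads per kilobase of exon on the per-million scale, log axis) of each of the 43 genes in the 3 sham and 3 ONC pools, 1 point per pool, ordered by class and mean level. Rod genes span means from 195 to 7788, cone genes from 4.50 to 247 and shared genes from 57.8 to 2625, and for most genes the points of both groups lie on top of each other.

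The rod genes had a median level of 983, the shared genes of 408 and the cone genes of 115. Gnat1, the alpha subunit of rod transducin, was the highest of the 43 genes, with a mean normalized level of 7788 over the 6 samples, and the deposited RPKM placed it first as well, at a mean of 5986. Sag followed at 3818 and Pde6g at 3041, and each of these lay below the one before it in all 6 samples. Among the cone genes Pde6h was the highest at 247 and Cnga3 the lowest at 4.50, which was also the lowest of all 43. Cngb1 was the lowest rod gene at 195, and Prph2 and Gucy2f bounded the shared genes at 2625 and 57.8.

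The 43 genes took 9.17% ± 0.09 (SD, n = 3) of exon reads in sham and 9.50% ± 0.17 in ONC. The groups did not overlap, at 9.08% to 9.26% against 9.38% to 9.69%. Counting error was small beside this, as the Wilson 95% interval reached at most 0.0136 percentage points on each side, though it covers counting error only. Rod genes held 4.71% ± 0.06 in sham and 4.99% ± 0.12 in ONC, cone genes 0.104% ± 0.006 and 0.114% ± 0.013, and shared genes 4.35% ± 0.04 and 4.39% ± 0.07. By class the groups lay apart for rod genes only, and overlapped for cone genes and for shared genes. With the sum of exon reads as the divisor, the median log2 FC of all genes was itself 0.035. Sag alone held 0.563% ± 0.006 of exon reads in sham and 0.749% ± 0.036 in ONC, and the other rod genes together held 4.15% ± 0.07 and 4.24% ± 0.15, with overlapping groups. Per read on genes, introns included, the groups of those other rod genes did not overlap. They stood at 3.11%, 3.16% and 2.99% in sham 1, 2 and 3 and at 3.53%, 3.37% and 3.24% in ONC 1, 2 and 3. The mean rose by 0.292 percentage points of the 0.469 that all rod genes rose by. The share of gene reads on exons was itself higher in every ONC sample. With gene reads as the divisor the median log2 FC of all genes was 0.13, so a rise on this scale is not particular to rod genes.

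Transducin carries the signal from the opsin, and its 3 subunits are separate gene products in rods and cones. With TMM scaling, the filter on RPKM and all 6 samples, none of the 6 transducin genes was called by edgeR or DESeq2, and 1, Gnb3, had an unadjusted p under 0.05. Gnat1 stood at 7604, 7787 and 8225 in sham and at 8369, 7387 and 7357 in ONC (normalized level). ONC 1 was the highest and ONC 2 and 3 were the lowest of the 6 samples, and the log2 FC was -0.03 ± 0.05 (SE; edgeR adjusted p = 0.820). Gnat2, the cone alpha subunit, stood at 126, 122 and 124 in sham and at 108, 137 and 123 in ONC, with a log2 FC of -0.02 ± 0.07 (edgeR adjusted p = 0.940). For Gnat2 it was ONC 1 that was lowest, the opposite of its place for Gnat1.

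Gnb1, the beta subunit used in rods, stood at 1781, 1837 and 1870 in sham and 1992, 1752 and 1775 in ONC (log2 FC 0.01 ± 0.05, edgeR adjusted p = 0.959). Gnb3, the beta subunit of cones, stood at 167, 151 and 177 in sham and 167, 202 and 188 in ONC (log2 FC 0.17 ± 0.07, edgeR adjusted p = 0.231). ONC 2 and 3 of Gnb3 lay above all sham samples and ONC 1 lay among them, and the gene was called without ONC 1 (log2 FC 0.24, edgeR adjusted p = 0.00716), without a filter (0.0904) and with the RPKM divisor (0.0163). Gngt1, the rod gamma subunit, stood at 1735, 1662 and 1667 in sham and 1692, 1828 and 1600 in ONC (log2 FC 0.02 ± 0.06, edgeR adjusted p = 0.919). Gngt2, the cone gamma subunit, stood at 121, 86.9 and 109 in sham and 97.8, 115 and 110 in ONC (log2 FC 0.03 ± 0.10, edgeR adjusted p = 0.912). The groups overlapped for all 6 transducin genes.

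The phosphodiesterase genes held 2 of the 5 genes called higher. Pde6c encodes the catalytic subunit of cones. It stood at 41.3, 35.9 and 36.3 in sham and at 48.1, 49.7 and 49.0 in ONC (normalized level), with the ONC samples all above the sham samples. Its log2 FC was 0.37 ± 0.07, or 1.29-fold (edgeR adjusted p = 0.00180), and the call was kept in all 16 alternatives. Pde6b encodes one of the catalytic subunits of rods. It stood at 885, 900 and 893 in sham and at 1018, 1013 and 1007 in ONC, and the groups lay well apart.

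The log2 FC of Pde6b was 0.18 ± 0.05, or 1.13-fold (edgeR adjusted p = 0.0340). Without sham 1, sham 2, sham 3, ONC 2 or ONC 3 the log2 FC stayed between 0.17 and 0.19 while the adjusted p rose to between 0.106 and 0.163. Under the replicate block the adjusted p was 0.166. Pde6a, the partner of Pde6b in the rod enzyme, stood at 949, 979 and 977 in sham and at 1126, 975 and 977 in ONC, with only ONC 1 above the sham samples (log2 FC 0.08 ± 0.06, edgeR adjusted p = 0.485). The inhibitory subunits were not called either. Pde6g of rods stood at 3041, 2939 and 3215 in sham and 3095, 3022 and 2933 in ONC (log2 FC -0.02 ± 0.05, edgeR adjusted p = 0.866). Pde6h of cones stood at 272, 227 and 262 in sham and 249, 232 and 238 in ONC (log2 FC -0.08 ± 0.07, edgeR adjusted p = 0.595).

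The channel that cyclic GMP opens is built of an A and a B subunit, and the exchanger Slc24a1 returns calcium out of the rod outer segment. With all 6 samples and the same scaling and filter, none of these 5 genes was called by edgeR or DESeq2, and 0 had an unadjusted p under 0.05. Slc24a1 was called lower without ONC 1 and Cnga1 higher with the RPKM divisor (edgeR). Cnga1 of rods stood at 377, 397 and 385 in sham and 406, 421 and 413 in ONC (normalized level), without overlap and with a log2 FC of 0.10 ± 0.05 (edgeR adjusted p = 0.345). Cngb1 of rods stood at 195, 198 and 210 in sham and 215, 177 and 175 in ONC, with ONC 1 the highest sample and the others the lowest (log2 FC -0.09 ± 0.07, edgeR adjusted p = 0.539). Without ONC 1 the log2 FC of Cngb1 was -0.19 and the gene was called lower (edgeR adjusted p = 0.00459). The cone channel genes were the least expressed of the 43 and the only ones with fewer than 1000 exon reads per sample on average. Cnga3 stood at 3.52, 4.69 and 4.53 in sham and 5.31, 4.58 and 4.36 in ONC (log2 FC 0.16 ± 0.14, edgeR adjusted p = 0.609). Cngb3 stood at 5.97, 6.03 and 5.93 in sham and 5.49, 6.22 and 4.95 in ONC (log2 FC -0.11 ± 0.11, edgeR adjusted p = 0.675).

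Slc24a1 stood between 395 and 417 in sham and between 356 and 416 in ONC, with a log2 FC of -0.11 ± 0.06 (edgeR adjusted p = 0.361). Cnga3 and Cngb3 had the widest standard errors of the 43 genes.

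Sag encodes the arrestin of rods, which binds light-activated, phosphorylated opsin and stops it from activating transducin. It was the most clearly changed of the 43 genes. Its normalized level was 3308, 3317 and 3306 in the sham samples and 4212, 4423 and 4341 in the ONC samples. The sham samples were nearly equal, with a coefficient of variation of 0.173%, and every ONC sample lay far above them. That value is below the counting error of the reads, so it is no measure of the spread between pools. The log2 FC was 0.39 ± 0.05, or 1.31-fold (edgeR adjusted p = 2.14e-05). The call was kept in all 16 alternatives, with a log2 FC between 0.36 and 0.51.

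Its cone counterpart Arr3 was not called. Arr3 stood at 125, 121 and 128 in sham and at 105, 160 and 159 in ONC, so that ONC 1 lay below all sham samples and ONC 2 and 3 above them (log2 FC 0.18 ± 0.11, edgeR adjusted p = 0.413). Without ONC 1 the log2 FC of Arr3 was 0.35 and the gene was called higher (edgeR adjusted p = 4.31e-05). The other genes that end the response are classed as shared. Grk1, the opsin kinase, Rcvrn, its calcium-bound inhibitor, and Rgs9, which speeds up GTP hydrolysis on transducin, had log2 FCs of -0.04, 0.00 and 0.03 and overlapping groups. Gnb5, the partner of Rgs9, stood at 399, 385 and 367 in sham and 399, 446 and 452 in ONC, with ONC 1 close to sham 1, and missed the threshold (log2 FC 0.17 ± 0.06, edgeR adjusted p = 0.119). It passed with DESeq2 (adjusted p = 0.0834), and by edgeR without ONC 1 (0.00125), without a filter (0.0486) and with the sum of exon reads (0.0698).

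Pdc encodes phosducin, which binds the beta and gamma subunits of transducin. It stood at 2463, 2773 and 2505 in sham and at 2014, 2161 and 2410 in ONC, with all ONC samples below all sham samples and ONC 3 close to sham 1. The log2 FC was -0.23 ± 0.06, or 0.851-fold (edgeR adjusted p = 0.0440). Only 37.2% of its exon reads mapped uniquely, while at least 99.9% did so for each other member, so that its level is uncertain. On unique reads alone the log2 FC was -0.24 (edgeR adjusted p = 0.0514). The call was lost without sham 2, where the log2 FC was -0.18 (adjusted p = 0.313), and without ONC 2 (-0.23, adjusted p = 0.113) and sham 3 (-0.25, adjusted p = 0.108), where the log2 FC stayed about as large, and on the RPKM scale, where the log2 FC of -0.11 had an adjusted p of 0.302. Its span overlaps that of 2310030A07Rik by 13226 bases, and since the files give that gene an exon length of 0, its part in the reads of Pdc was not tested.

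Cyclic GMP is remade by the guanylate cyclases Gucy2e and Gucy2f, which the calcium-sensing proteins Guca1a and Guca1b regulate. Gucy2f stood at 62.2, 64.9 and 62.0 in sham and at 55.6, 50.6 and 51.6 in ONC (normalized level), with no overlap. Its log2 FC was -0.26 ± 0.06, or 0.835-fold (edgeR adjusted p = 0.00798), and the call was kept without each single sample. On the RPKM scale, against an all-gene median of 0.13, the log2 FC was -0.14 and the gene was not called. Gucy2e, the more abundant cyclase, stood at 112, 121 and 123 in sham and 119, 106 and 107 in ONC (log2 FC -0.10 ± 0.06, edgeR adjusted p = 0.392). Of the regulators, Guca1a stood at 1008, 962 and 958 in sham and 1013, 1197 and 1107 in ONC, without overlap but with ONC 1 next to sham 1 (log2 FC 0.18 ± 0.06, edgeR adjusted p = 0.111). Guca1a passed with DESeq2 (adjusted p = 0.0785), and by edgeR without a filter (0.0327), with the sum of exon reads (0.0636) and without ONC 1 (0.000778). Guca1b had a log2 FC of -0.02 and overlapping groups.

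The transcription factors Crx, Nrl and Nr2e3 set up the photoreceptor program, Crx in rods and cones and the other two in rods, where Nr2e3 also represses cone genes. Nr2e3 stood at 443, 379 and 412 in sham and at 567, 534 and 488 in ONC (normalized level). The lowest ONC sample lay above the highest sham sample, and the log2 FC was 0.37 ± 0.06, or 1.29-fold (edgeR adjusted p = 0.00171), called in all 16 alternatives. Nrl was not called and stood at 958, 957 and 1019 in sham and 978, 963 and 943 in ONC (log2 FC -0.02 ± 0.05, edgeR adjusted p = 0.847). Crx stood at 399, 403 and 406 in sham and 444, 431 and 408 in ONC, without overlap and with a log2 FC of 0.09 ± 0.05 (edgeR adjusted p = 0.421). Of the 3 factors, Nr2e3 alone passed the test, and the differences between the factors were not tested.

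**Figure D3:**
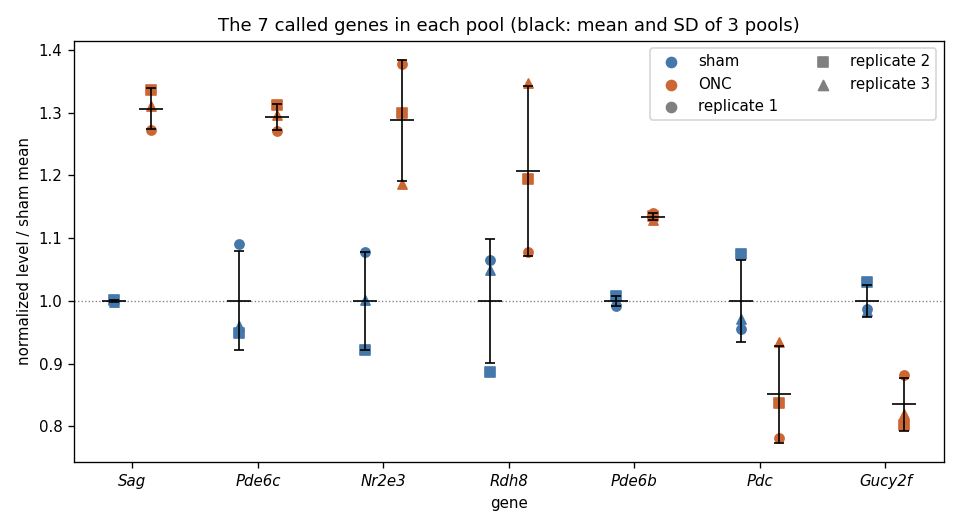
Normalized level of the 7 called genes in each pool, divided by the sham mean of the gene (vertical axis), with the mean and SD of 3 pools in black and the replicate number as the marker shape. Sag, Pde6c and Nr2e3 have ONC means of 1.29 to 1.31, Pde6b lies at 1.13 with the tightest ONC points, Rdh8 and Pdc come closest to overlap, and Gucy2f lies at 0.835.

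Of the 4 structural genes of the outer segment, none was called by edgeR with TMM scaling or by DESeq2, and 0 had an unadjusted p under 0.05, while Rp1 was called higher with the RPKM divisor. Prph2 and Rom1 shape the rims of the discs, and Rp1 and Rp1l1 bind the microtubules of the axoneme. Prph2, the highest shared gene, stood at 2586, 2547 and 2702 in sham and 2809, 2589 and 2518 in ONC (log2 FC 0.01 ± 0.05, edgeR adjusted p = 0.918). The log2 FCs of all 4 genes lay between -0.04 and 0.05 and their groups overlapped. The matrix proteins Impg1 and Impg2, which fill the space around the outer segments, had log2 FCs of -0.06 and -0.05. The chaperone Aipl1, which the rod phosphodiesterase needs for folding, stood at 639, 609 and 632 in sham and 688, 691 and 690 in ONC. Its groups did not overlap, but it missed the threshold (log2 FC 0.14 ± 0.05, edgeR adjusted p = 0.1504). The coefficient of variation of its ONC samples, 0.207%, is below the counting error of the reads and no measure of the spread between pools. Aipl1 passed with DESeq2 (adjusted p = 0.0688), and by edgeR with the sum of exon reads (0.0485) and without ONC 1 (0.0363). Tulp1 and Unc119, which act in transport to the outer segment, had log2 FCs of 0.06 and 0.01.

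Retinoid genes clear the spent chromophore. Rdh8, a reductase of all-trans-retinal in the outer segment, stood at 67.7, 56.3 and 66.7 in sham and at 68.5, 75.9 and 85.7 in ONC (normalized level). Its lowest ONC sample was close to its highest sham sample, and the log2 FC was 0.27 ± 0.08, or 1.21-fold (edgeR adjusted p = 0.0829). The call was lost without ONC 3 (log2 FC 0.18, adjusted p = 0.412) or sham 2 (0.19, adjusted p = 0.384), where the log2 FC fell, and without ONC 2 (0.28, adjusted p = 0.172) or sham 3 (0.31, adjusted p = 0.156), where it did not. Rdh12, a related reductase, had a log2 FC of 0.10, Rbp3, which carries retinoids between cells, 0.01, and Abca4, which moves retinoid adducts across the disc membrane, -0.12, all with overlapping groups.

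Counted by overlap alone, 10 of the 43 genes had every ONC sample above every sham sample and 2 had every ONC sample below. Over all genes tested, 11% lay apart upward and 10.8% downward, 21.8% in all. Among the 43 genes the shares were 23.3% upward, above that of all genes, and 4.65% downward, below it. The 10 genes were Sag, Nr2e3, Pde6c, Rdh8, Pde6b, Gnb5, Guca1a, Aipl1, Cnga1 and Crx, and the 2 were Gucy2f and Pdc.

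Promoters were read for the called genes because Crx, Nrl and Nr2e3 act on photoreceptor promoters and because Nr2e3 itself was called. Of the 43 genes, 32 had an entry among the RefSeq promoters of GRCm38.p6, with 35 promoters in all. The 250 bases before each start were searched on both strands for TAATCC and TAATCT, the cores bound by Crx and Otx2, for TGCTGA, the core bound by Nrl, and for AAGTCA, the core bound by Nr2e3. TAATCC and TAATCT differ in their last base and cannot match the same letters on the same strand. TAATCC was found in 14 of the 35 promoters, each of a separate gene, and in 6.25% of 32851 promoters of the same length. TAATCT was found in 9 of the 35 and in 7.31% of all promoters, TGCTGA in 7 and in 16.1%, and AAGTCA in 1 and in 13.1%. A match is a description of the letters and not of binding, and GC content was not adjusted for.

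By class, TAATCC or TAATCT stood before 5 of 9 matched rod genes, 2 of 4 cone genes and 14 of 19 shared genes. Over all classes it stood before 21 of 32 genes (65.6%), and in 12.8% of all 32851 promoters. Of the 6 called genes with an entry it stood before 3, a share not above that of the 32 genes. These were Sag and Nr2e3, which were higher in ONC, and Gucy2f, which was lower. The bases from 200 to 41 before the start are shown for those 3 genes and for Pdc, 5′ to 3′ on the strand of the gene, as this stretch holds every match found in them. Capitals mark the matches, among which GGATTA and AGATTA are TAATCC and TAATCT on the other strand. The windows lie at chr1:87803480-87803639 (+, Sag), chr9:59950120-59950279 (-, Nr2e3), chrX:142196977-142197136 (-, Gucy2f) and chr1:150319217-150319376 (+, Pdc) of GRCm38.p6, upstream of the first exon.
Sag: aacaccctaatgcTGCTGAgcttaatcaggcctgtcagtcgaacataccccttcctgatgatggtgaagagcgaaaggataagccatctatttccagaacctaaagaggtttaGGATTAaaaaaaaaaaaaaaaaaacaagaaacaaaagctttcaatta
Nr2e3: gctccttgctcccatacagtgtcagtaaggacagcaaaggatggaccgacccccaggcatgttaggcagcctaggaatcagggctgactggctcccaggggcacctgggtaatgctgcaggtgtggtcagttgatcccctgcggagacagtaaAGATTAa
Gucy2f: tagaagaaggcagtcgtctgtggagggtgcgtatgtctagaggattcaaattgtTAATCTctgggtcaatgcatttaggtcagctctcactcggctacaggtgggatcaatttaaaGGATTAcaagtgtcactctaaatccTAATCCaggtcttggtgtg
Pdc: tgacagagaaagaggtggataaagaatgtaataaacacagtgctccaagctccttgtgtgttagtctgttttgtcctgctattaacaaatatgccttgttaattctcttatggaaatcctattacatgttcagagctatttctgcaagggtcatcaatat

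Sag had GGATTA at 87 to 82 bases before its start and TGCTGA at 187 to 182. Nr2e3 had AGATTA at 47 to 42. Gucy2f, the gene with the most matches of the 4 in this stretch, had TAATCC at 59 to 54, GGATTA at 84 to 79 and TAATCT at 146 to 141. None of the 4 motifs was in the 250 bases before Pdc.

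Rod and cone paralogs were also compared within each sample, since a ratio of levels in one sample does not depend on scaling. The 9 pairs were tested by two-sided exact permutation tests, for which 3 samples against 3 cannot give a p below 0.1, with adjustment over the 9. No pair could therefore fall under the threshold of 0.1 whatever its values, so the test cannot decide whether the ratios changed. No pair reached an adjusted p under 0.6. The only ratio whose groups did not overlap was that of Pde6b to Pde6c, the rod and cone catalytic subunits. It was 21.4, 25.1 and 24.6 in sham and 21.2, 20.4 and 20.5 in ONC (mean 23.7 ± 1.97 and 20.7 ± 0.41, exact permutation p = 0.1, adjusted p = 0.6). Both genes were called higher, and the cone gene by the larger log2 FC, 0.37 against 0.18. ONC 1 and sham 1 differed little in this ratio.

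The ratio of Sag to Arr3 was 26.5, 27.4 and 25.8 in sham and 39.98, 27.7 and 27.3 in ONC, where ONC 1 stood far above the others (exact permutation p = 0.2). Gnat1 to Gnat2 was 60.5, 64.0 and 66.2 in sham and 77.8, 54.1 and 59.6 in ONC, so that ONC 1 was the highest sample and ONC 2 and 3 were the lowest, and the means were 63.5 and 63.8. For Gnb1 to Gnb3, where ONC 1 was the highest ONC sample too, the means were 11.1 ± 0.91 in sham and 10.0 ± 1.68 in ONC. In the remaining pairs the means were 16.3 and 15.9 for Gngt1 to Gngt2, 25.7 and 20.99 for Pde6a to Pde6c, 12.1 and 12.6 for Pde6g to Pde6h, 92.3 and 87.7 for Cnga1 to Cnga3, and 33.6 and 34.3 for Cngb1 to Cngb3 (sham and ONC), each with overlapping groups. ONC 1 was the highest ONC sample for Gngt1 to Gngt2, Pde6a to Pde6c, Pde6b to Pde6c and Cngb1 to Cngb3 as well. It was the lowest for Cnga1 to Cnga3 and lay between the others for Pde6g to Pde6h. ONC 1 lay above both other ONC samples in 9 of 12 rod genes and below both in 5 of 8 cone genes. Over all 13670 genes tested it lay above both in 5403 and below both in 5171.

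**Figure D4:**
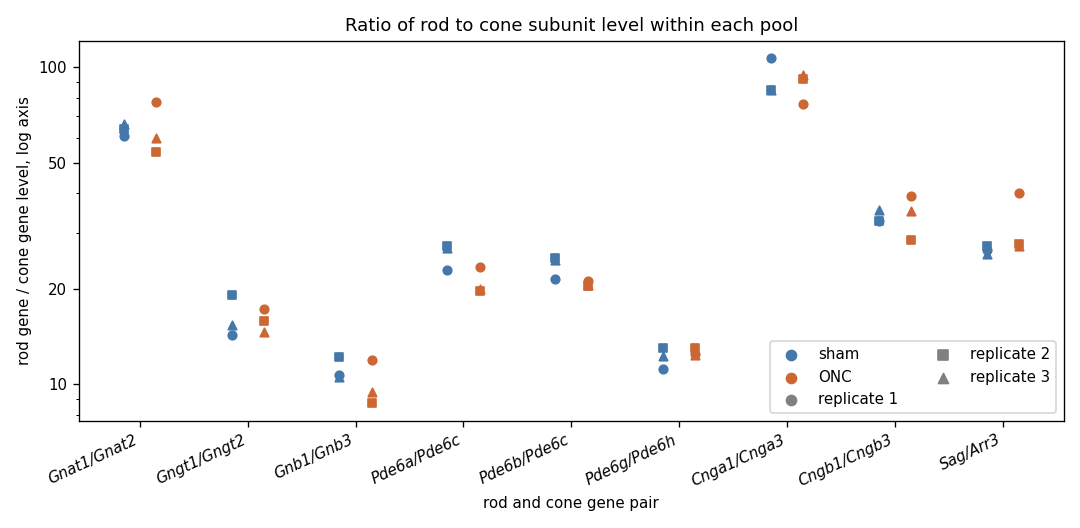
Ratio of the normalized level of the rod gene to that of the cone gene (log axis) in each pool, for 9 pairs of paralogs, with sham and ONC in color and the replicate number as the marker shape. Only Pde6b to Pde6c has groups apart. ONC 1 stands above both other ONC samples for most pairs, among them Gnat1 to Gnat2 (77.8) and Sag to Arr3 (39.98), and below both for Cnga1 to Cnga3.

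Reads on introns gave a second readout of the same genes. RNA that is not yet spliced is one source of such reads, and their source was not tested. Exons took 70.9% to 76.6% of gene reads in sham and 78.5% to 80.4% in ONC, so introns took less in every ONC sample. Intron reads were taken as gene reads minus exon reads and fitted in the same way over 13317 genes with a mean of at least 10 intron reads. All 43 genes were tested. The spread between pools was wider here, with a common coefficient of variation of 23.2% against 9.17% for exon reads. In this fit 3 of the 43 genes were called higher and 1 lower, while 2.88% of all genes tested were called, 0.511% higher and 2.37% lower.

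Nr2e3 was the gene called higher on both readouts. Its intron reads, on the per-million scale after TMM scaling, were 396, 314 and 275 in sham and 492, 588 and 519 in ONC, without overlap, and the log2 FC was 0.70 ± 0.15 (edgeR adjusted p = 0.0655). The cone genes Gnb3 and Arr3 were called on introns only. Gnb3 had 102, 102 and 92.8 in sham and 139, 168 and 143 in ONC (log2 FC 0.60 ± 0.14, edgeR adjusted p = 0.0708). Arr3 had 254, 216 and 256 in sham and 302, 436 and 365 in ONC (log2 FC 0.60 ± 0.15, edgeR adjusted p = 0.0815). Pdc was lower on both readouts, with 277, 297 and 273 in sham and 150, 182 and 203 in ONC (log2 FC -0.66 ± 0.15, edgeR adjusted p = 0.0655). The intron reads of Pdc were not limited to unique reads. Its span overlaps that of 2310030A07Rik, whose part in them was not tested. For all 4 genes the groups did not overlap, as was so for 22.6% of all genes tested on introns.

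The other genes called on exon reads were not called on introns. The intron log2 FC was 0.18 for Sag (edgeR adjusted p = 0.556), 0.40 for Pde6c (0.251), 0.41 for Rdh8 (0.242), 0.00 for Pde6b (an adjusted p that rounds to 1) and -0.30 for Gucy2f (0.310). Whether the exon and intron changes of a gene differ was not tested. The intron medians were 0.12 for rod genes, 0.38 for cone genes and 0.06 for shared genes, beside 0.03 over all genes tested. Single samples moved these medians, the cone median to 0.229 without ONC 2, the rod median to 0.0531 without sham 3, 0.0707 without ONC 2 and 0.188 without sham 1, and the shared median to -0.0190 without sham 3, 0.0338 without ONC 2, 0.101 without sham 2, 0.132 without ONC 1 and 0.134 without sham 1. Without ONC 2, ONC 3 or sham 2 none of the 43 genes was called (edgeR), with 0, 1 and 0 calls among all genes and 1352, 1782 and 2113 genes at an unadjusted p under 0.05. The log2 FCs of the 4 genes kept their direction without each single sample, between 0.59 and 0.86 for Nr2e3, 0.51 and 0.65 for Gnb3, 0.46 and 0.73 for Arr3, and -0.77 and -0.55 for Pdc. The library kit was not stated to keep the strand, so that reads from an antisense transcript within an intron cannot be told apart from those of the gene.

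**Figure D5:**
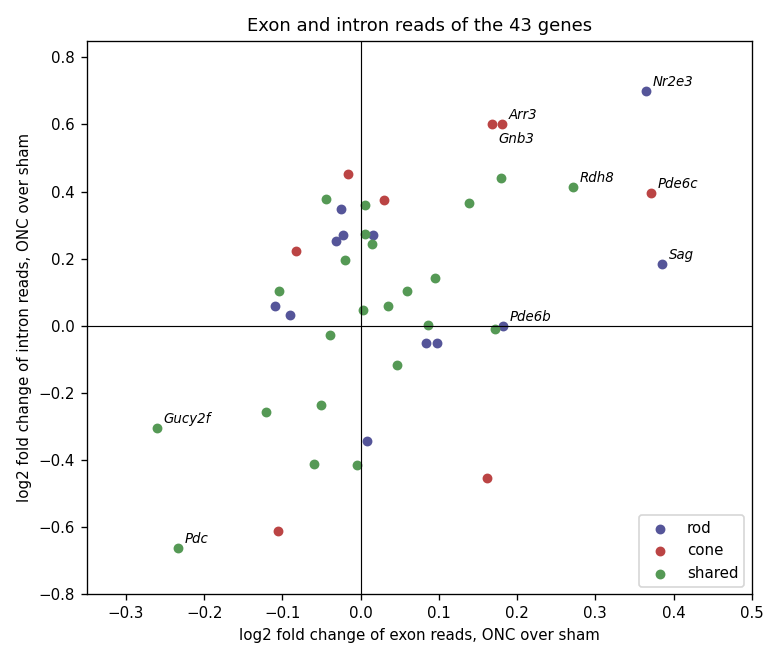
Log2 fold change (ONC over sham) of exon reads (horizontal axis) against that of intron reads (vertical axis) for the 43 genes, colored by class, with the genes called on either readout named. Nr2e3 (0.37 and 0.70) lies far from 0 on both axes, Sag (0.39 and 0.18) mainly on the exon axis, Pde6b at 0 on the intron axis, and Pdc (-0.23 and -0.66) below 0 on both.

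Other genes of photoreceptors were taken from a separate list of 29, of which 28 were in the tables and tested. Of these, 2 were called higher and 2 lower, with a median log2 FC of 0.00. Cabp4, a calcium-binding protein of the photoreceptor synapse, stood at 181, 162 and 173 in sham and 216, 219 and 203 in ONC (normalized level; log2 FC 0.31 ± 0.06, edgeR adjusted p = 0.00441). Kcnv2, a potassium channel subunit of the inner segment, stood at 143, 139 and 142 in sham and 164, 158 and 159 in ONC (log2 FC 0.18 ± 0.05, edgeR adjusted p = 0.0554). The 2 genes called lower encode nuclear receptors. Rorb stood at 27.9, 32.0 and 28.0 in sham and 20.4, 17.04 and 22.4 in ONC (log2 FC -0.56 ± 0.08, edgeR adjusted p = 0.000235). Esrrb stood at 95.8, 110 and 99.9 in sham and 70.1, 62.3 and 87.6 in ONC (log2 FC -0.47 ± 0.09, edgeR adjusted p = 0.00288). Both fell by more than any of the 43 genes in log2 FC on exon reads, and Rorb is also made by other neurons of the retina.

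The cone opsins were not called. Opn1sw, the short-wavelength cone opsin, stood at 159, 163 and 180 in sham and 165, 192 and 166 in ONC (log2 FC 0.06 ± 0.07, edgeR adjusted p = 0.711). Opn1mw, the middle-wavelength cone opsin, stood at 135, 141 and 117 in sham and 96.3, 118 and 127 in ONC (log2 FC -0.20 ± 0.09, edgeR adjusted p = 0.241). The groups overlapped for both, and ONC 1 was the lowest ONC sample for each.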

How the data were processed

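The authors prepared paired-end libraries, mapped the reads with CLC Genomics Workbench with at most 2 mismatches, and deposited a table per sample with total and unique read counts on exons and on whole genes, an intact pair counting as 1, and RPKM values. In the deposited RPKM, exon reads per kilobase are divided by all reads on genes, introns included. The study names mm9, while 37 of the 43 genes lie within 5000 bases of their RefSeq GRCm38 position and 2 of 43 of their NCBIM37 position.

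Groups and replicate numbers came from the labels. Total exon counts were fitted with edgeR 4.0.16 in R 4.3.3 (TMM, glmQLFit, glmQLFTest, condition only). The cutoffs of RPKM, FDR and fold change have the values of the study. The study applied its FDR to q-values from Student's t-tests, and its filter kept another number of genes, so that the calls are not made as in the study. The SE is the log2 FC divided by the square root of F. Intron reads are gene minus exon reads. Alternatives were other size factors, the DESeq2 1.42.0 Wald test, limma 3.58.1 on log2(RPKM + 0.1) and log2(RPKM + 1), other filters, unique reads, a replicate block and leaving out each sample. The edgeR fit was checked on simulated data. For intron reads the simulated spread was smaller than the 23.2% found, so that this check does not cover the intron calls. Python 3.11.15, numpy 2.4.6, pandas 2.3.3, scipy 1.17.1 and matplotlib 3.10.9 served for the rest. Columns with group means and comparisons by the authors were not used.

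The members and gene lists were chosen with earlier results of these data known. Full values were given for the genes of the 9 rod and cone pairs, for every gene called in either fit, for the highest and lowest gene of each class, for the cone opsins and for called genes of the other photoreceptor list, of which 1 gene is not reported here. Gnb5, Guca1a, Aipl1, Crx, Nrl, Gucy2e and Slc24a1 were given values after these had been seen, as was the background of genes with 1000 or more exon reads and the rod share without Sag.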

Additional observations from a re-analysis of the deposited data

How the results depend on the processing

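Sag, Nr2e3 and Pde6c were called higher on exon reads under every one of 16 alternatives, Gucy2f was called lower under 13, Rdh8 higher under 12, and Pde6b higher and Pdc lower under 10 each. The count of genes called higher, 5, became 8 with the DESeq2 Wald test, 8 with the sum of exon reads, 9 without a filter, 16 with the RPKM divisor and 13 with limma at either pseudocount. Over all genes the count called higher, 325, became 354, 399, 483 and 1507 in the same order. With limma the all-gene count was 978 at a pseudocount of 0.1 and 1011 at 1. The count called lower, 2, became 0 with the RPKM divisor and with limma. Over all genes the count called lower, 508, became 223 with the RPKM divisor, and 143 and 147 with limma at 0.1 and 1. No gene passed 1.5-fold under any of them. Leaving out single samples gave 3 to 10 higher and 1 to 7 lower on exons, and 0 to 3 higher and 0 to 1 lower on introns. Over all genes these fits gave 152 to 769 higher and 219 to 1262 lower on exons. On introns they gave 0 to 171 higher and 0 to 743 lower over all genes. On introns, 3 were called lower with DESeq2 and 0 with the sum of intron reads. Over all genes 730 and 53 were called lower in these 2 fits, beside 315 in the edgeR fit with TMM scaling. The class medians for rod, cone and shared genes were 0.13, 0.22 and 0.13 with the RPKM divisor, 0.13, 0.22 and 0.13 with limma at 0.1, and 0.13, 0.19 and 0.12 at 1, beside all-gene medians of 0.13, 0.13 and 0.11. Without single samples they ran from -0.0127 to 0.0418, 0.0257 to 0.126 and -0.0460 to 0.0266 on exons and from 0.0531 to 0.188, 0.229 to 0.485 and -0.0190 to 0.134 on introns. With the sum of intron reads the intron medians were 0.31 for rod and 0.25 for shared genes, beside 0.22 for all genes. Per exon read, the rod share rose by 0.282 percentage points, and by 0.0959 without Sag. Per gene read, where the all-gene median log2 FC was 0.13, it rose by 0.469, and by 0.292 without Sag, and the shared share by 0.259. Leaving out Sag was chosen after seeing the data.

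The sign turned for uncalled genes near 0. With the RPKM divisor the log2 FC was 0.0314 for Cngb1, 0.0168 for Cngb3, 0.0910 for Gnat1, 0.109 for Gnat2, 0.1004 for Pde6g and 0.0399 for Pde6h. With limma it was, in the same order, 0.0269, 0.0102, 0.0897, 0.0997, 0.1002 and 0.0439 at a pseudocount of 0.1 and 0.0268, 0.00939, 0.0897, 0.0989, 0.1002 and 0.0437 at 1. All of these lie below the all-gene median of their setting. With the sum of exon reads it was 0.0119 for Gnat2 and 0.00225 for Pde6g, and on introns -0.0176 for Pde6b with DESeq2. Leaving out single samples turned Gnat1 (-0.0946 to 0.00167), Gnat2 (-0.106 to 0.0695), Gnb1 (-0.0528 to 0.0375), Gngt1 (-0.0407 to 0.0555), Gngt2 (-0.0931 to 0.136), Pde6g (-0.0523 to 0.0128), Prph2 (-0.0324 to 0.0426) and the introns of Pde6b (-0.0234 to 0.0332). It also turned the log2 ratios of Gnat1 to Gnat2 (-0.162 to 0.101), Gngt1 to Gngt2 (-0.111 to 0.0974), Pde6g to Pde6h (-0.00177 to 0.105), Cnga1 to Cnga3 (-0.130 to 0.0411) and Cngb1 to Cngb3 (-0.0852 to 0.145). The cause was not tested.

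Replicate numbers are shared by the groups, but same-numbered samples did not deviate together (correlations of -0.0474, -0.0333 and 0.00261). With the replicate block 4 genes were called higher and 2 lower on exons, Pde6b losing its call, and 2 higher and 1 lower on introns, Arr3 losing its call, while the intron log2 FC of Pde6b was -0.000192. Over all genes the block gave 281 higher and 447 lower on exons, and 43 higher and 317 lower on introns. Cnga3 and Cngb3 had the fewest reads of the 43 genes.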
